A study of Mus musculus with 12 samples.

Results

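The comparison described here is that of cardiomyocytes taken after transverse aortic constriction (TAC) with cardiomyocytes taken after sham surgery, both from mice that carried a control hairpin. It rests on 6 of the 12 arrays of the study, 3 TAC shControl and 3 Sham shControl arrays, chosen by their titles, and is described across the 15118 probes that were detected on at least 3 of the 12 arrays. These probes stand for 8746 named genes. A probe counted as detected when its deposited detection p-value was under 0.01.

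Adult cardiomyocytes had been isolated from left ventricles of C57Bl6/J mice, all male. In the TAC shControl group, pups had been given an adeno-associated virus of serotype 9 with a scrambled hairpin (AAV9-scr) when 10 days old, underwent TAC 2 months later and were sampled at 1 week. The Sham shControl group carried the same virus and had a sham operation. The age label reads 8 weeks in every group. The remaining 6 arrays, TAC and sham with a hairpin against Uhrf1 (AAV9-sh-Uhrf1 #1), served to estimate the spread and to test whether the response differed. Every group carried a hairpin virus, and mice without virus were not analysed here. The series describes 4 samples run in triplicate without naming separate animals. The p-values set the difference against the spread between arrays of a group, shared over the 4 groups, and that spread may be technical.

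TAC ties a band around the aortic arch, so that the left ventricle has to pump against a raised load. Loaded heart muscle cells enlarge, and the ventricle takes up again the expression of genes that are high in the fetal heart, among them those of the natriuretic peptides and of skeletal muscle and slow muscle proteins. In the same weeks vessels and connective tissue around the muscle cells remodel. Isolated cardiomyocytes are freed from the tissue with enzymes, and such preparations can hold cells of other kinds.

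Cardiomyocyte markers were at a high and similar level in both groups. Of 18 listed markers 17 passed the filter, all 17 were detected on all 6 arrays, and 0 rose and 0 fell. Their summed linear level ranged from 297707 to 302018 on the TAC arrays and from 277509 to 295671 on the sham arrays. The median log2 difference of the list was 0.06, and it was -0.07 when each array was scaled to its median and -0.35 when scaled to the median of the probes detected on all 12 arrays. Myh6, the alpha myosin heavy chain of the adult mouse ventricle, had a log2 difference of -0.13 ± 0.13 (SE), with an adjusted p of 0.537.

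Markers of other heart cells were higher on the TAC arrays. The gene lists here and below were chosen with earlier results of these data known, so their counts are descriptions. The summed level of 20 endothelial markers ranged from 7659 to 14779 after TAC and from 3238 to 3950 after sham surgery, and 17 of the 20 rose, where 11.4% of all genes tested rose. For 12 fibroblast markers the ranges were 9289 to 11884 after TAC and 2476 to 4344 after sham, and 11 rose. For 23 macrophage markers they were 12557 to 15422 after TAC and 7074 to 8938 after sham, and 7 rose. With scaling to the array median 13 of them rose, and 13 did in a fit of the 6 shControl arrays alone. Among 14 markers of smooth muscle and pericytes 5 rose and 1 fell, with sums of 23137 to 27634 after TAC and 16449 to 21540 after sham, and without TAC array 3 the number of rises was 2. In bulk RNA fewer cells of a type and less RNA per cell cannot be told apart, and the part of such cells in the differences below was not tested.

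No marker of circulating blood cells was called higher. Of 21 listed lymphocyte markers 2 passed the detection filter, and of 15 neutrophil and mast cell markers 3 did, none of which was called. These 3 all had a positive difference, with a median of 0.95. Their mean log2 level was 5.48, 7.72 and 5.11 on TAC arrays 1, 2 and 3, against 5.70, 5.28 and 4.90 on the sham arrays. Of the lymphocyte markers Gzmm fell. The defining markers Cd3e, Ly6g and Mpo did not pass the detection filter. The haemoglobin gene Hba-a1 had log2 intensities of 11.60, 13.68 and 9.53 in TAC cells, against 14, 12.30 and 13.34 in sham cells. The groups overlapped, the spread within the TAC group was wide, and the difference of -1.61 ± 0.81 did not pass (SE, adjusted p = 0.190). TAC array 2 decided this call. Without it all 3 measured genes of the erythroid list fell, with a median of -2.38, while with all arrays none passed and the median was -1.45. Without TAC array 3 the median was -0.57 and none passed. Hba-a1 did pass without TAC array 2 (adjusted p = 0.0245).

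**Figure D1:**
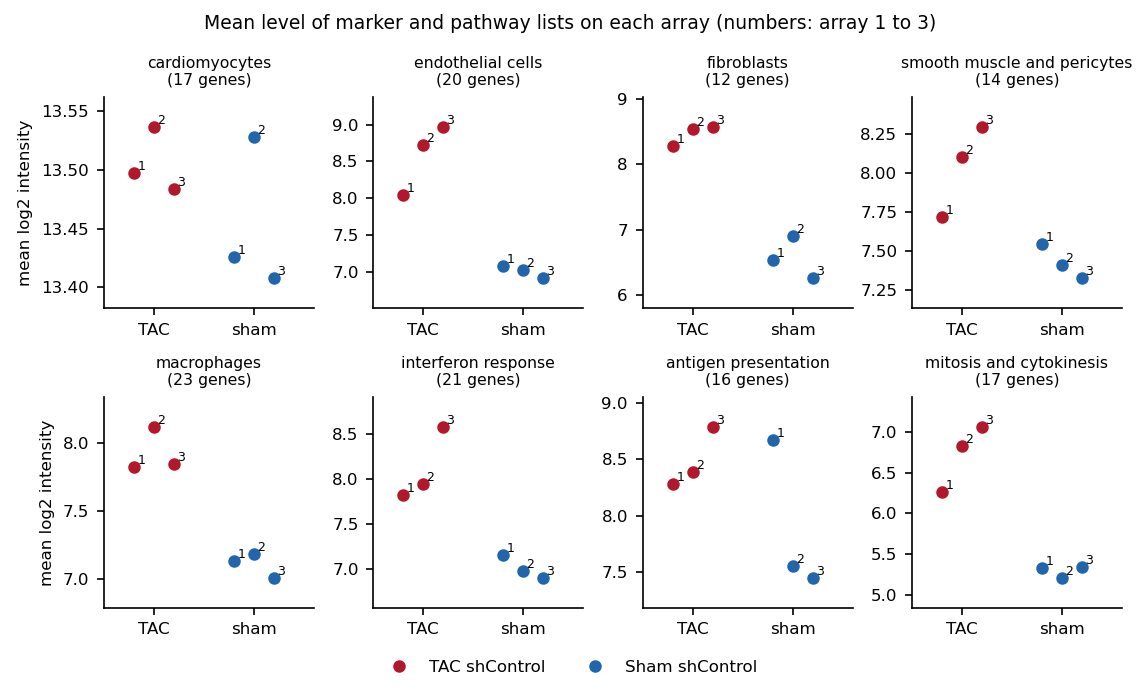
Mean log2 intensity of the members of 8 marker and pathway lists on each array, with the 3 TAC shControl arrays left of the 3 Sham shControl arrays and the array number beside each point. Endothelial, fibroblast, smooth muscle, macrophage, interferon and mitosis lists lay higher on every TAC array than on every sham array. Of the 17 mitosis genes 12 were detected on no sham array and entered through arrays on which they are high. The cardiomyocyte list overlapped between the groups, and for antigen presentation sham array 1 lay at 8.68, among the TAC arrays.

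The arrays of a group resembled each other more than those of the other group. Across probes the correlation was 0.982 to 0.985 between TAC arrays, 0.980 to 0.987 between sham arrays and 0.943 to 0.972 between the groups. The TAC arrays detected 13912 ± 590 probes and the sham arrays 12720 ± 360 (SD, n = 3 each). TAC array 3 detected most, 14544, and lay farthest from the sham arrays on the first principal component (47.9, with 23.9 and 32.9 for TAC arrays 1 and 2). The 3 sham arrays lay between -31.9 and -24.7 on it.

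In all, 1654 genes passed the test at an adjusted p under 0.05, which is 18.9% of the 8746 tested. Of these 1001 were higher after TAC (11.4%) and 653 lower (7.47%), and 526 (6.01%) and 65 (0.743%) of them differed by at least 2-fold. The shares of 11.4% and 7.47% are the background for all counts of list members given in this report. The 3 TAC arrays all lay above the 3 sham arrays for 19.2% of genes and all below for 19.3%. The count of calls fell to 991 without sham array 3 and to 875 without TAC array 3. The counts of higher genes were then 662 and 601. Those of lower genes were 365 without sham array 1, 329 without sham array 3, 429 without TAC array 2 and 274 without TAC array 3.

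The share of lower genes depended on the scaling between arrays. Quantile normalization, used here, gave 60.5% higher among the genes called. Scaling each array to its median gave 1200 higher and 72 lower (94.3% higher) and gave a median difference over all genes of 0.19, against -0.04 under quantile normalization. Scaling to the median of the probes detected on all 12 arrays gave 923 higher and 910 lower (50.4% higher), and testing only those probes gave 615 higher and 629 lower (49.4% higher). No gene called in the first count turned its sign under either scaling, but the falls described below are falls relative to the bulk of genes, and counts of list members under the other scalings are given with several lists.

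**Figure D2:**
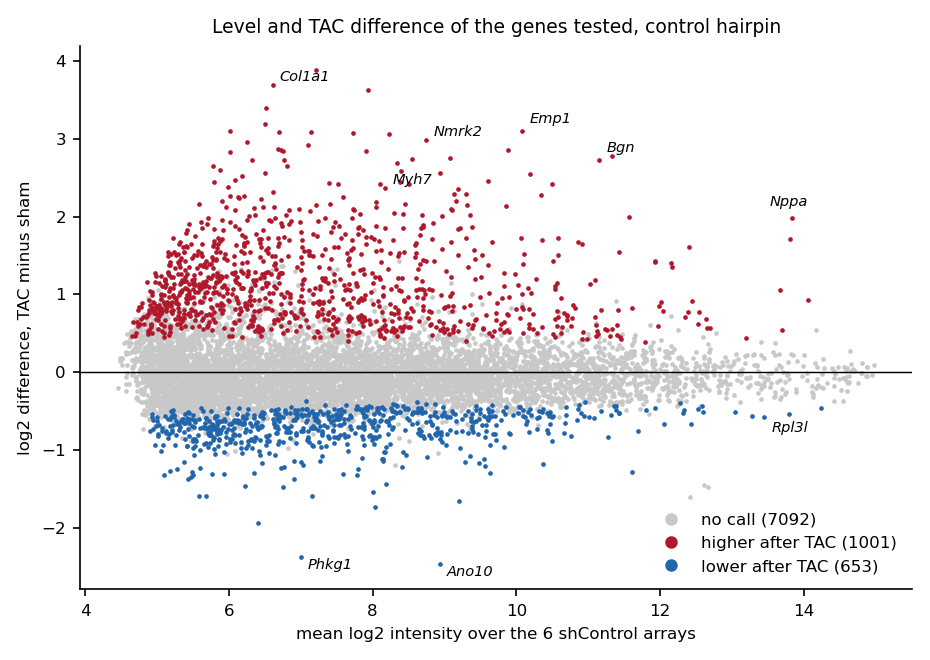
Log2 difference (TAC minus sham, vertical axis) against the mean log2 intensity over the 6 shControl arrays (horizontal axis) for 8746 genes, 1 point a gene, with the 1001 genes higher after TAC in red, the 653 lower genes in blue and the others in grey. Large rises were spread over low and middle intensities, and 2 genes, Ano10 and Phkg1, fell by more than 2 on the log2 scale.

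Rises were more frequent among dim genes. When the genes were parted into 10 equal bins by mean intensity, 14.9% and 16.3% of the genes in the 2 lowest bins rose, against 6.5% in the highest bin. For falls the shares were 4.2% in the lowest bin, up to 9.0% in the middle bins and 4.0% in the highest. Detection itself differed between the groups. A set of 269 genes was detected on all 3 TAC arrays and on no sham array, and 212 of them passed the test, while 19 genes were detected on all 3 sham arrays and no TAC array, and all 19 passed. Among the genes detected on all 6 arrays 1132 of 6795 passed. Genes that no sham array detected entered the test through arrays on which they are high. The shares of rises in the lowest bins, and the counts of rises for lists with many such genes, are therefore descriptions. On the probes detected on all 12 arrays alone, which leave these genes out, rises numbered 1 for mitosis, 1 for replication, 1 for fibrillar collagens, 2 for elastic fibres, 2 for the Notch pathway, 3 for the integrated stress response, 6 for cytokines, 8 for proteoglycans and 5 for fibroblast markers. Where no sham array detected a gene, its rise is given below as at least N-fold, a bound set by the lowest detected signal.

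The natriuretic peptides are hormones that heart muscle secretes when stretched, and they promote salt loss and lower blood pressure. Nppa, which encodes atrial natriuretic peptide, had log2 intensities of 14.79, 14.80 and 14.88 in TAC cells, against 12.99, 13.38 and 12.14 in sham cells. All TAC arrays lay above all sham arrays, the TAC values spanned less than the sham values, and the difference was 1.98 ± 0.29 (SE, 3.96-fold, adjusted p = 0.00102). The TAC values lay near the top of the scale, where the highest mean of a gene over the 12 arrays was 14.96. Whether this narrowed their span or the difference was not tested. Nppb, which encodes the B-type peptide, had 13.88, 14.15 and 14.58 in TAC cells, against 12.85, 13.46 and 13.11 in sham cells. It was again higher on every TAC array, by 1.06 ± 0.20 (2.09-fold, adjusted p = 0.00364).

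Other genes make, read or degrade these peptides. Of the 9 listed genes 7 passed the filter, and Nppa and Nppb alone rose. Corin, the protease that cleaves the pro-peptide of Nppa, differed by -0.48 ± 0.16 (adjusted p = 0.0575) and Furin, a proprotein convertase, by 0.21 ± 0.15 (adjusted p = 0.372). Npr3, the clearance receptor, differed by -0.12 ± 0.33 (adjusted p = 0.834). Mme, the peptidase neprilysin, was detected on 2 sham arrays and no TAC array. None of these 4 passed (adjusted p = 0.10 for Mme). Mme did pass without sham array 1 (adjusted p = 0.00955).

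Of the 16 measured genes of the stress-responsive and fetal muscle list 11 rose and none fell, with a median log2 difference of 1.00, against -0.04 over all genes tested, of which 11.4% rose. Myh7, the beta myosin heavy chain that the fetal ventricle uses, had log2 intensities of 9.90, 8.86 and 9.33 in TAC cells, against 6.65, 7.54 and 6.78 in sham cells. Every TAC value exceeded every sham value, and the rise was 2.37 ± 0.52 (5.17-fold, adjusted p = 0.00883). The other 2 Myh7 probes were detected on all TAC arrays and no sham array and did not pass (adjusted p = 0.0702 and 0.0531). Acta1, skeletal alpha actin, stood at 14.69, 14.75 and 14.54 in TAC cells, against 12.53, 13.75 and 12.56 in sham cells, a rise of 1.71 ± 0.26 (3.28-fold, adjusted p = 0.00132). Its TAC values, and those of Ankrd1 below, also lay near the top of the scale.

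Sham array 2 was the highest of its group for most of these genes. Mybpc2, the fast skeletal isoform of myosin-binding protein C, had 9.56, 9.25 and 9.78 in TAC cells, against 7.05, 7.91 and 7.14 in sham cells. The groups did not overlap, and the rise was 2.16 ± 0.23 (4.48-fold, adjusted p = 0.000177). Ankrd1, a titin-binding ankyrin repeat protein that also enters the nucleus, had 14.62, 14.49 and 14.45 in TAC cells, against 13.43, 14.01 and 13.34 in sham cells, which is a rise of 0.93 ± 0.19 (adjusted p = 0.00569). Averaged over the 16 genes, the log2 level was 10.69 on sham array 2, against 10.23 on sham array 1 and 10.23 on sham array 3. The 3 TAC arrays lay between 11.36 and 11.56.

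Fhl1 and Xirp2 had tighter values. Fhl1, a LIM protein that binds the stretch-sensing part of titin, stood at 12.78, 13.02 and 12.72 in TAC cells, against 11.46, 11.57 and 11.44 in sham cells. Xirp2, an actin-binding protein of the intercalated disc, stood at 12.96, 12.46 and 13.13 in TAC cells, against 11.49, 11.48 and 11.39 in sham cells. They rose by 1.35 ± 0.14 (adjusted p = 0.000143) and 1.40 ± 0.18 (adjusted p = 0.000446), and neither overlapped between the groups. Rcan1, a feedback inhibitor of calcineurin, did not pass, at 0.91 ± 0.33 (adjusted p = 0.0698). Rcan1 did pass without sham array 2 or TAC array 2 (adjusted p of up to 0.0368).

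**Figure D3:**
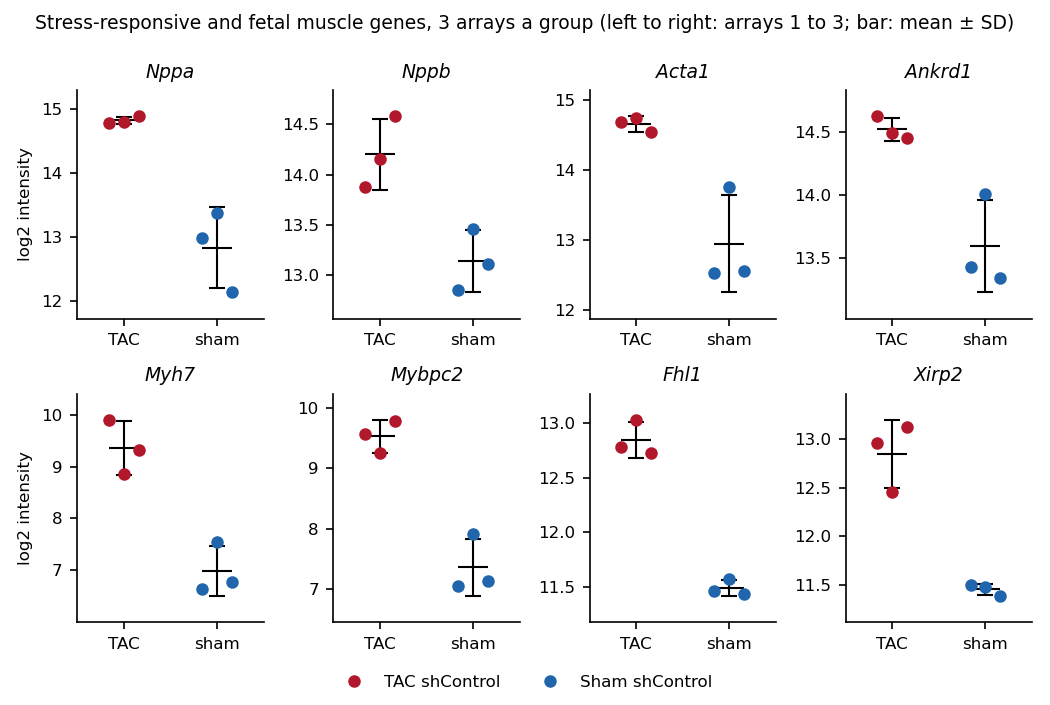
Log2 intensity of 8 stress-responsive and fetal muscle genes on the 3 TAC shControl arrays (red, left) and the 3 Sham shControl arrays (blue, right), with mean and SD as black bars and arrays 1 to 3 from left to right in each group. No gene shows overlap between its groups, and sham array 2 is the highest sham array for Nppa, Nppb, Acta1, Ankrd1, Myh7, Mybpc2 and Fhl1.

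The promoters of 4 of these genes are shown because these genes moved together and short elements near the start of transcription are known to act in muscle promoters. The windows run from 250 bases before to 50 bases after the start (RefSeq, GRCm38.p6, 5′ to 3′ on the gene's strand). Capitals mark the MCAT element, CATTCC or GGAATG on the other strand, which TEAD factors bind, and the CArG box, which serum response factor binds.
Nppa (chr4:148000472-148000771, + strand): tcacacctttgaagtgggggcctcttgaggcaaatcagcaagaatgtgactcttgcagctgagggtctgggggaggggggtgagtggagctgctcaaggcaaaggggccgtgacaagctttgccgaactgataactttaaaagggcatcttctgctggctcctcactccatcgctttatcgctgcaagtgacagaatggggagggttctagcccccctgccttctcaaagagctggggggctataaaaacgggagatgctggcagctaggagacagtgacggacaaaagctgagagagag
Nppb (chr4:147985650-147985949, + strand): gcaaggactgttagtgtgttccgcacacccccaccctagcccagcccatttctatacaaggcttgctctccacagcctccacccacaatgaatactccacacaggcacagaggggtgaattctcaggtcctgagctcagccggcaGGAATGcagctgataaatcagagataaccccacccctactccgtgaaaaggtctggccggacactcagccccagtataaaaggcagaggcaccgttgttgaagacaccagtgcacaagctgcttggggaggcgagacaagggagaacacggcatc
Acta1 (chr8:123894726-123895025, - strand): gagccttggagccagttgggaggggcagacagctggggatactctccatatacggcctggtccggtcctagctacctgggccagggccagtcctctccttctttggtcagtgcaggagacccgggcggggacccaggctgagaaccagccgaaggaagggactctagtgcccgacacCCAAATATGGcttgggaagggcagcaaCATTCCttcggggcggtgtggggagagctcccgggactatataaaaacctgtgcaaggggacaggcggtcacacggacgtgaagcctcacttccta
Ankrd1 (chr19:36119795-36120094, - strand): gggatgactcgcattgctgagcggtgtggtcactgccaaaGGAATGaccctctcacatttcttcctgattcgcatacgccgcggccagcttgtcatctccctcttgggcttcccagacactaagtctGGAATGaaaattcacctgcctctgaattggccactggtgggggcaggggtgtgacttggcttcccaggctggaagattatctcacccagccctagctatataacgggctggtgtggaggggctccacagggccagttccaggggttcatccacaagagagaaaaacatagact

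The Acta1 window holds both elements, Nppb has 1 MCAT element, Ankrd1 has 2 and Nppa has neither within these bases. All 11 genes of the list that rose had a window in the table. Of them 6 held an MCAT element (Acta1, Ankrd1, Ankrd23, Mybpc2, Myh7 and Nppb) and 2 a CArG box (Acta1 and Fhl1). Among 32851 mouse windows of this length 14.7% hold an MCAT element on either strand and 1.63% a CArG box. These shares are per window, while a gene of the list counted if any of its windows matched, so the 2 are not like measures. A match is a run of letters and no binding was measured.

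The thick filament carries the myosin motors. Of 14 measured thick filament genes Mybpc2 and Myh7 rose, and Mylk3 and Obsl1 fell, with a median of 0.11 that was -0.26 under scaling to probes detected on all arrays. Rises and falls were 14.3% each, where 11.4% of all genes rose and 7.47% fell. Mylk3, the cardiac kinase that phosphorylates the regulatory light chain, had 10.40, 10.03 and 9.98 in TAC cells, against 10.59, 10.99 and 10.84 in sham cells. Each TAC value lay below each sham value, and Mylk3 fell by 0.67 ± 0.17 (adjusted p = 0.0157), although 1 of its 3 probes did not pass. There was 1 fall without sham array 1, sham array 2, TAC array 1 or TAC array 2 and 0 without sham array 3 or TAC array 3. The cardiac isoforms Myh6, Myl2 (0.07 ± 0.11), Myl3 (0.02 ± 0.12) and Mybpc3 (0.17 ± 0.17) did not pass (adjusted p of 0.713, 0.935 and 0.529 for the last 3). Mylk3 was not called without sham array 2, sham array 3, TAC array 2 or TAC array 3 (adjusted p of up to 0.0680).

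On the thin filament 4 of 14 measured genes rose and 1 fell, where 11.4% of all genes rose and 7.47% fell. Tpm2, beta tropomyosin, rose by 1.74 ± 0.24 (adjusted p = 0.000892) and Tpm1, the probe of alpha tropomyosin used here, by 1.27 ± 0.24 (adjusted p = 0.00425). Tnni2, the inhibitory troponin of fast skeletal muscle, had 5.50, 5.48 and 5.50 in TAC cells, against 6.61, 6.47 and 6.16 in sham cells. Its TAC values were closely alike and all below the sham values, and it fell by 0.92 ± 0.18 (adjusted p = 0.00523). The cardiac genes Actc1 (0.06 ± 0.16, adjusted p = 0.829), Tnni3 (-0.17 ± 0.16, adjusted p = 0.496) and Tnnc1 (0.09 ± 0.13, adjusted p = 0.678) did not pass.

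Z-disc and costamere genes, which anchor the thin filaments and link them to the membrane, rose in 9 of 25 cases and fell in none, with a median of 0.37, where 11.4% of all genes rose. With genes that no sham array detected at their bounds, the median was 0.22. Scaled to the probes detected on all arrays, 5 rose and the median was 0.11. Synpo2l, an actin-bundling Z-disc protein, had 8.87, 8.89 and 8.86 in TAC cells, against 7.79, 7.5 and 7.38 in sham cells. Pdlim7, which carries PDZ and LIM domains, had 7.37, 7.87 and 8.63 in TAC cells, against 5.90, 6.40 and 5.78 in sham cells. The first rose by 1.32 ± 0.19 (adjusted p = 0.000887) and the second by 1.93 ± 0.29 (adjusted p = 0.00127), and in both the groups lay apart. Pdlim1 rose by 0.82 ± 0.14 (adjusted p = 0.00239). Actn2, the main crosslinker of the Z-disc, and Tcap did not pass (0.10 ± 0.12 and -0.10 ± 0.15, adjusted p = 0.596 and 0.707).

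Potassium channel genes shape the repolarization of the heart muscle cell. Of 17 measured members 6 fell and none rose, with a median of -0.32, where 7.47% of all genes fell. With median scaling 1 fell and 2 rose, and the median was -0.05, against 0.19 for all genes. Kcnd2, a pore subunit of the transient outward current, had 8.38, 7.30 and 8.04 in TAC cells, against 8.74, 8.89 and 9.18 in sham cells. Kcnip2, the subunit that brings such channels to the membrane, had 7.89, 7.55 and 7.30 in TAC cells, against 8.14, 8.63 and 8.46 in sham cells. Both were lower on every TAC array. Kcnd2 fell by 1.03 ± 0.24 (adjusted p = 0.0121) and Kcnip2 fell by 0.83 ± 0.25 (adjusted p = 0.0336), and the other 2 Kcnip2 probes did not pass. Kcnd2 was not called without sham array 3 (adjusted p = 0.0527). Kcnip2 was not called without sham array 2, sham array 3, TAC array 2 or TAC array 3 (adjusted p of up to 0.132).

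Kcnv2, a silent subunit that modifies other potassium channels, had the largest fall of this group. Its log2 intensities were 5.67, 5.78 and 4.86 in TAC cells, against 7.37, 7.29 and 7.48 in sham cells, with detection on 2 of the 3 TAC arrays and all sham arrays. It fell by 1.94 ± 0.27 (3.85-fold, adjusted p = 0.000891). Abcc9, the sulfonylurea receptor SUR2 of the ATP-sensitive channel, fell by 0.80 ± 0.13 (adjusted p = 0.00201), and of the channel that acetylcholine opens through G proteins Kcnj3 fell by 0.87 ± 0.19 and Kcnj5 fell by 0.89 ± 0.18 (adjusted p = 0.00779 and 0.00574). Kcnh2 (-0.29 ± 0.17), Kcnj2 (0.02 ± 0.30) and Kcnj11 (-0.29 ± 0.15), which carry other repolarizing and resting currents, did not pass (adjusted p = 0.259, 0.978 and 0.210). Kcnj5 was detected on 1 TAC and 3 sham arrays. Kcnj11 was detected on 2 TAC and 2 sham arrays.

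Of the sodium, pacemaker and other channel genes 8 of 23 passed the filter, of which 1 rose and 2 fell. Scn4b, a beta subunit of the sodium channel, had 8.23, 7.72 and 7.43 in TAC cells, against 8.86, 9.0 and 9.18 in sham cells, and fell by 1.22 ± 0.28, with every TAC array below every sham array (adjusted p = 0.0108). Its second probe differed by -0.29 and did not pass (adjusted p = 0.355). Ano10, of the anoctamin family, had 7.56, 8.17 and 7.37 in TAC cells, against 10.49, 9.55 and 10.48 in sham cells. It fell by 2.47 ± 0.28 (5.55-fold, adjusted p = 0.000236), the largest fall among the genes that passed. Fxyd5, a regulator of the sodium pump, rose by 1.87 ± 0.35 (adjusted p = 0.00405). Scn4b was not called without TAC array 3 (adjusted p = 0.0536).

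Calcium handling genes govern how the muscle cell contracts and relaxes. None of 20 rose and 2 fell, a share near that over all genes (7.47%), and their median of -0.03 was 0.01 under median scaling. Hrc, which binds calcium within the sarcoplasmic reticulum, had 13.08, 13.12 and 12.79 in TAC cells, against 13.67, 13.58 and 13.41 in sham cells, and Camk2b, a calcium-dependent kinase, had 6.88, 6.78 and 6.61 in TAC cells, against 7.59, 7.34 and 7.26 in sham cells. In both the groups lay apart. Hrc fell by 0.56 ± 0.16 and Camk2b fell by 0.64 ± 0.16 (adjusted p = 0.0261 and 0.0147). The falls numbered 0 without sham array 1 or TAC array 3 and 1 without sham array 2. The calcium pump Atp2a2, its inhibitor Pln, the release channel Ryr2 and the exchanger Slc8a1 differed by 0.12 ± 0.12, -0.01 ± 0.17, 0.07 ± 0.14 and 0.17 ± 0.16 at their brightest probes and did not pass (adjusted p of 0.487 to 0.969). Another, dimmer probe of Atp2a2 fell by 0.61 ± 0.17 (adjusted p = 0.0289). Hrc was not called without sham array 1, sham array 2 or TAC array 3 (adjusted p of up to 0.109). Camk2b was not called without sham array 1 or TAC array 3 (adjusted p of up to 0.0649).

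Receptor and G protein genes moved in both directions, with 7 of 20 measured members higher and 3 lower. Over all genes 11.4% rose and 7.47% fell. Leaving out 1 array changed the number of falls, which was 1 without sham array 2, sham array 3 or TAC array 3 and 0 without TAC array 1. Pde1a, a phosphodiesterase that calcium and calmodulin activate, was detected on all TAC arrays and no sham array, and rose at least 1.43-fold (adjusted p = 0.000236). Rgs4 and Rgs5, which shorten signals of G protein-coupled receptors, rose by 1.63 ± 0.34 and 2.09 ± 0.47 (adjusted p = 0.00653 and 0.00920). Ace, the enzyme that makes angiotensin II, rose by 1.95 ± 0.35 (adjusted p = 0.00306) and the endothelin receptor Ednrb by 1.57 ± 0.35 (adjusted p = 0.00857). Ace and Rgs5 are also abundant in endothelial cells or pericytes, whose marker sums are given above. Adcy9 and Adcy6, enzymes that make cyclic AMP, and Chrm2, the muscarinic receptor of the heart, were the members that fell. Adcy9 fell by 0.67 ± 0.17, Adcy6 fell by 0.59 ± 0.18 and Chrm2 fell by 0.82 ± 0.24 (adjusted p = 0.0189, 0.0387 and 0.0318). Agtr1a, an angiotensin receptor, did not pass (-0.22 ± 0.17, adjusted p = 0.416). The second Adcy6 probe differed by -0.21 and did not pass (adjusted p = 0.534). The second Chrm2 probe differed by -0.08 and did not pass (adjusted p = 0.875). Rgs4 and Ace were each detected on 3 TAC and 2 sham arrays. Adcy9 was not called without sham array 3 or TAC array 1 (adjusted p of up to 0.0699). Adcy6 was not called without sham array 1, sham array 2, TAC array 1 or TAC array 3 (adjusted p of up to 0.159). Chrm2 was not called without sham array 2, sham array 3, TAC array 1, TAC array 2 or TAC array 3 (adjusted p of up to 0.111).

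Of 17 measured genes of the calcineurin, NFAT and MEF2 route 1 rose and 1 fell. Each was 5.9% of the list, where 11.4% of all genes rose and 7.47% fell. Nfatc4, a transcription factor that calcineurin activates, was detected on TAC arrays alone and rose at least 1.19-fold (adjusted p = 0.00480). Hdac4, a class II histone deacetylase that restrains MEF2, had 6.0, 6.28 and 5.42 in TAC cells, against 6.84, 6.64 and 6.87 in sham cells, and fell by 0.88 ± 0.20 (adjusted p = 0.0106). Of 16 cardiac transcription factors Hopx fell by 0.66 ± 0.19 and Zfpm2 fell by 0.61 ± 0.18 (adjusted p = 0.0302 and 0.0321). Gata4 (0.10 ± 0.19), Nkx2-5 (-0.16 ± 0.18) and Tead1 (-0.04 ± 0.13) did not pass (adjusted p = 0.773, 0.579 and 0.850). Gata4 was detected on 3 TAC and 2 sham arrays. Hopx was not called without sham array 2, sham array 3, TAC array 1 or TAC array 3 (adjusted p of up to 0.129). Zfpm2 was not called without sham array 2, sham array 3, TAC array 1 or TAC array 2 (adjusted p of up to 0.115).

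The adult heart draws most of its energy from fatty acids, which are activated in the cytosol, carried into mitochondria and shortened there. Of 41 measured genes of this route 11 fell and none rose, with a median of -0.33, where 7.47% of all genes fell. Under median scaling 4 fell and the median was -0.34, and under scaling to the probes detected on all arrays 23 fell and the median was -0.63. The number of falls was 7 without sham array 1 or TAC array 2 and 4 without sham array 2, sham array 3 or TAC array 3. Acsl6, which activates long-chain fatty acids, had 7.12, 6.79 and 6.87 in TAC cells, against 8.17, 7.93 and 8.63 in sham cells, and Acot1, a thioesterase that releases them, had 9.26, 9.61 and 8.10 in TAC cells, against 10.12, 10.26 and 10.47 in sham cells. All TAC values lay below all sham values in both. Acsl6 fell by 1.32 ± 0.21 and Acot1 fell by 1.29 ± 0.30 (adjusted p = 0.00167 and 0.0109).

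Within the mitochondria, Etfb, which passes electrons from the oxidation steps to the respiratory chain, fell by 0.53 ± 0.14 (adjusted p = 0.0237) and Decr1, needed for unsaturated fatty acids, fell by 0.57 ± 0.16 (adjusted p = 0.0294). The core enzymes Acadm (-0.32 ± 0.13), Hadha (-0.43 ± 0.21) and Acadvl (-0.26 ± 0.16) and the carnitine transferase Cpt1b (-0.08 ± 0.14) did not pass (adjusted p = 0.115, 0.173, 0.291 and 0.723). Hadha did pass without TAC array 1 (adjusted p = 0.0150). Etfb was not called without sham array 2, sham array 3 or TAC array 3 (adjusted p of up to 0.10). Decr1 was not called without sham array 2, sham array 3 or TAC array 3 (adjusted p of up to 0.126).

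Branched-chain amino acids and ketone bodies are further fuels of the heart. Of 17 measured genes that break them down 8 fell and none rose, with a median of -0.52, where 7.47% of all genes fell. Under median scaling 2 fell and the median was -0.39. Under scaling to the probes detected on all arrays 12 fell. The count of falls was 4 without sham array 1 or TAC array 2, 3 without sham array 2 and 1 without TAC array 3. The called genes act at several steps of the pathway. Bcat2, the mitochondrial transaminase of the first step, had 9.04, 9.11 and 8.63 in TAC cells, against 9.87, 9.60 and 9.69 in sham cells, and fell by 0.79 ± 0.18 (adjusted p = 0.0116). Bcat2 was not called without TAC array 3 (adjusted p = 0.0572).

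The next step is made by the branched-chain keto acid dehydrogenase. Of its subunits Bckdhb fell by 0.79 ± 0.23 and Dbt fell by 0.70 ± 0.20 (adjusted p = 0.0297 and 0.0317), although the 2 dim further probes of Dbt did not pass. Ppm1k, the phosphatase that switches the dehydrogenase on, had 10.28, 9.99 and 9.88 in TAC cells, against 10.87, 10.75 and 10.86 in sham cells. It fell by 0.78 ± 0.15 (adjusted p = 0.00461), 2 of its 3 other probes passed in the same direction, and the groups lay apart. Further down, Mccc2 of leucine breakdown fell by 0.75 ± 0.17 and Pcca of propionate metabolism fell by 0.59 ± 0.16 (adjusted p = 0.0115 and 0.0261). Bckdk, the kinase that opposes Ppm1k, differed by -0.29 ± 0.13 and Oxct1 of ketone body use by -0.09 ± 0.14, and neither passed (adjusted p = 0.152 and 0.705). Another, dimmer probe of Bckdk fell by 0.48 ± 0.15 (adjusted p = 0.0425). Other Pcca probes differed by -0.53 and -0.28 and did not pass (adjusted p = 0.120 and 0.227). Bckdhb was not called without sham array 1, sham array 2, sham array 3, TAC array 2 or TAC array 3 (adjusted p of up to 0.116). Dbt was not called without sham array 2, sham array 3 or TAC array 3 (adjusted p of up to 0.131). Mccc2 was not called without TAC array 3 (adjusted p = 0.0521). Pcca was not called without sham array 1, sham array 2, TAC array 2 or TAC array 3 (adjusted p of up to 0.0926).

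The tricarboxylic acid cycle and the respiratory chain turn these fuels into ATP. Of 24 cycle genes Sdhc fell by 0.51 ± 0.15 and Suclg2 fell by 0.51 ± 0.16 (adjusted p = 0.0318 and 0.0481), and the list median was -0.18. Of 34 measured subunits of complex I, 32 had a negative difference, against 4770 of 8746 over all genes. Of these subunits Ndufa12 alone passed (-0.44 ± 0.14, adjusted p = 0.0458). Of 36 subunits of complexes II to V, Uqcrq (-0.74 ± 0.18, adjusted p = 0.0155) and Sdhc passed. Falls made up 8.3% of the cycle list, 2.9% of complex I and 5.6% of complexes II to V. These shares lay near or below the 7.47% of all genes that fell. The 3 falls of the chain and both of the cycle were not called without TAC array 3. The medians of the chain lists were -0.18 and -0.14, against -0.04 for all genes, and -0.29 and -0.25 under median scaling, where all genes lay at 0.19. Under that scaling 1 gene of the cycle, 0 of complex I and 1 of complexes II to V fell. Scaled to the probes detected on all arrays, where all genes lay at -0.09, 13, 18 and 19 of these genes fell, with medians of -0.52, -0.57 and -0.53. The second Suclg2 probe differed by -0.16 and did not pass (adjusted p = 0.683). Sdhc was not called without sham array 1, sham array 2, sham array 3, TAC array 2 or TAC array 3 (adjusted p of up to 0.127). Suclg2 was not called without sham array 1, sham array 2, sham array 3, TAC array 2 or TAC array 3 (adjusted p of up to 0.195). Ndufa12 was not called without sham array 1, sham array 2, sham array 3, TAC array 1, TAC array 2 or TAC array 3 (adjusted p of up to 0.148). Uqcrq was not called without TAC array 3 (adjusted p = 0.0723).

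Of 56 mitochondrial ribosomal proteins 54 had a negative difference, against 4770 of 8746 over all genes. Of the 56, 6 fell and none rose, with a median of -0.25, where 7.47% of all genes fell. Under median scaling none passed. Under scaling to the probes detected on all arrays 23 fell, and 16 did in a fit of the authors' deposited normalized values. There was 1 fall without sham array 1 or TAC array 1 and 0 without sham array 3 or TAC array 3. Mrpl22, with the smallest p of the list, had 9.58, 9.54 and 9.32 in TAC cells, against 10.18, 9.87 and 10.24 in sham cells, and fell by 0.62 ± 0.15 (adjusted p = 0.0123). Genes measured on 1 set of arrays share its errors, and the count of negative differences is a description. Mrpl22 was not called without sham array 3 or TAC array 3 (adjusted p of up to 0.0578).

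Glucose is the main other fuel of the heart. Of 18 measured genes of glycolysis and glucose transport 1 rose (5.6%) and 3 fell (16.7%), where 11.4% of all genes rose and 7.47% fell. Pfkp, the platelet isoform of phosphofructokinase, had 10.27, 10.08 and 10.12 in TAC cells, against 8.36, 9.32 and 8.43 in sham cells, with sham array 2 nearest the TAC values, and rose by 1.46 ± 0.26 (adjusted p = 0.00286). Slc2a4, the insulin-responsive transporter GLUT4, fell by 0.59 ± 0.18 (adjusted p = 0.0406), while Slc2a1, the basal transporter GLUT1, did not pass (0.19 ± 0.25, adjusted p = 0.640). Fbp2, the muscle fructose bisphosphatase, fell by 1.17 ± 0.22 (adjusted p = 0.00449) and Ldhb, the heart type chain of lactate dehydrogenase, fell by 0.88 ± 0.15 (adjusted p = 0.00230). Gapdh (0.22 ± 0.12), Ldha (0.20 ± 0.12) and Pfkm (-0.13 ± 0.15) did not pass (adjusted p = 0.249, 0.295 and 0.60). Another, dimmer probe of Pfkm fell by 0.40 ± 0.13 (adjusted p = 0.0484). Ldhb was detected on 2 TAC and 3 sham arrays. Slc2a4 was not called without sham array 1, sham array 2, sham array 3, TAC array 2 or TAC array 3 (adjusted p of up to 0.138).

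Of 16 genes of glycogen metabolism 2 fell (12.5%) and none rose, where 7.47% of all genes fell. The falls numbered 1 without sham array 1, sham array 2, sham array 3, TAC array 2 or TAC array 3. Phkg1, the catalytic subunit of phosphorylase kinase in skeletal muscle, had 6.18, 5.84 and 5.41 in TAC cells, against 8.23, 8.01 and 8.33 in sham cells. The groups were far apart, and Phkg1 fell by 2.38 ± 0.28 (5.20-fold, adjusted p = 0.000356), the next largest fall after that of Ano10. The phosphorylase it activates, Pygm, did not pass (-0.46 ± 0.15, adjusted p = 0.0566), nor did the other kinase subunits Phkb, Phka1, Phka2 (-0.13) and Phkg2, which lay between -0.30 and 0.00 (adjusted p of 0.152 or more). Another probe of Phka2, detected on 0 TAC and 3 sham arrays, was called lower (adjusted p = 0.0173). Pygm did pass without TAC array 1 (adjusted p = 0.0337).

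Of 15 genes of NAD synthesis and use 3 rose (20.0%) and 2 fell (13.3%), where 11.4% of all genes rose and 7.47% fell. Leaving out 1 array changed the number of falls, which was 1 without sham array 2, sham array 3, TAC array 2 or TAC array 3. Nmrk2, a muscle kinase that makes NAD from nicotinamide riboside, had at its brightest probe 9.98, 10.08 and 10.66 in TAC cells, against 7.43, 7.58 and 6.75 in sham cells. The rise was 2.98 ± 0.23 (7.91-fold, adjusted p = 2.26e-05). A second probe rose by 2.99 (adjusted p = 5.65e-05), but another, with log2 intensities of 5.97, 5.65 and 5.74 after TAC and 7.44, 6.87 and 6.83 after sham, fell by 1.26 (adjusted p = 0.00172). The probes disagreed in direction, and which transcripts each one reads was not tested. Nnt, which makes NADPH in mitochondria, fell by 0.87 ± 0.17 (adjusted p = 0.00553), and the deacetylase Sirt1 fell by 0.57 ± 0.16 (adjusted p = 0.0242). Nampt, which salvages nicotinamide, and Nmrk1 did not pass (-0.26 ± 0.26 and -0.34 ± 0.26, adjusted p = 0.533 and 0.403). Another, dimmer probe of Nampt fell by 0.69 ± 0.21 (adjusted p = 0.0346). The second Nnt probe differed by -0.10 and did not pass (adjusted p = 0.833). Nmrk1 was detected on 1 TAC and 1 sham array. Sirt1 was not called without sham array 2, sham array 3, TAC array 2 or TAC array 3 (adjusted p of up to 0.10).

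In phosphate transfer, Ak4, a mitochondrial adenylate kinase, had 7.04, 6.64 and 6.39 in TAC cells, against 7.86, 7.90 and 7.75 in sham cells, and fell by 1.15 ± 0.16 (adjusted p = 0.000954). Slc6a8, the creatine transporter, rose by 0.53 ± 0.15 (adjusted p = 0.0305). The creatine kinases Ckm (-0.08 ± 0.14) and Ckmt2 (-0.08 ± 0.16) did not pass, and Ckb, the brain isoform, differed by 0.44 ± 0.16 (adjusted p = 0.743, 0.774 and 0.0700). Ckb did pass without TAC array 2 (adjusted p = 0.0394). Slc6a8 was not called without sham array 1, sham array 2, sham array 3, TAC array 1 or TAC array 3 (adjusted p of up to 0.128).

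Ribosomal proteins include an isoform pair. Of 42 measured cytosolic members Rpl3 rose and Rpl3l fell, and the list median was 0.07, turning to -0.03 and -0.32 under the 2 other scalings. Rpl3, present in most tissues, had 12.78, 12.94 and 13 in TAC cells, against 12.03, 12.02 and 11.92 in sham cells. Rpl3l, its counterpart in striated muscle, had 13.29, 13.34 and 12.85 in TAC cells, against 13.85, 13.76 and 13.60 in sham cells. The rise of Rpl3 was 0.91 ± 0.15 (adjusted p = 0.00192) and Rpl3l fell by 0.58 ± 0.15 (adjusted p = 0.0194), with the groups apart in both. Rpl3l was not called without sham array 1 or TAC array 3 (adjusted p of up to 0.0842).

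The elongation factor that brings aminoacyl-tRNA to the ribosome also has isoforms. Eef1a1, the general form, had 13.02, 13.04 and 13.57 in TAC cells, against 11.57, 11.64 and 11.57 in sham cells, and rose by 1.61 ± 0.26 (adjusted p = 0.00171), while Eef1a2, the form of adult heart, muscle and brain, differed by -0.13 ± 0.12 and did not pass (adjusted p = 0.520). Of 31 translation genes 5 rose and none fell, among them the helicase Eif4a1 (0.60 ± 0.14, adjusted p = 0.0114). The rises were 16.1% of the list, where 11.4% of all genes rose. With scaling to the array median or to probes detected on all arrays 2 rose. The number of rises was 3 without sham array 1, TAC array 1 or TAC array 3 and 2 without sham array 3. The second Eif4a1 probe differed by 0.42 and did not pass (adjusted p = 0.0991). Eif4a1 was not called without sham array 3 (adjusted p = 0.0525).

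**Figure D4:**
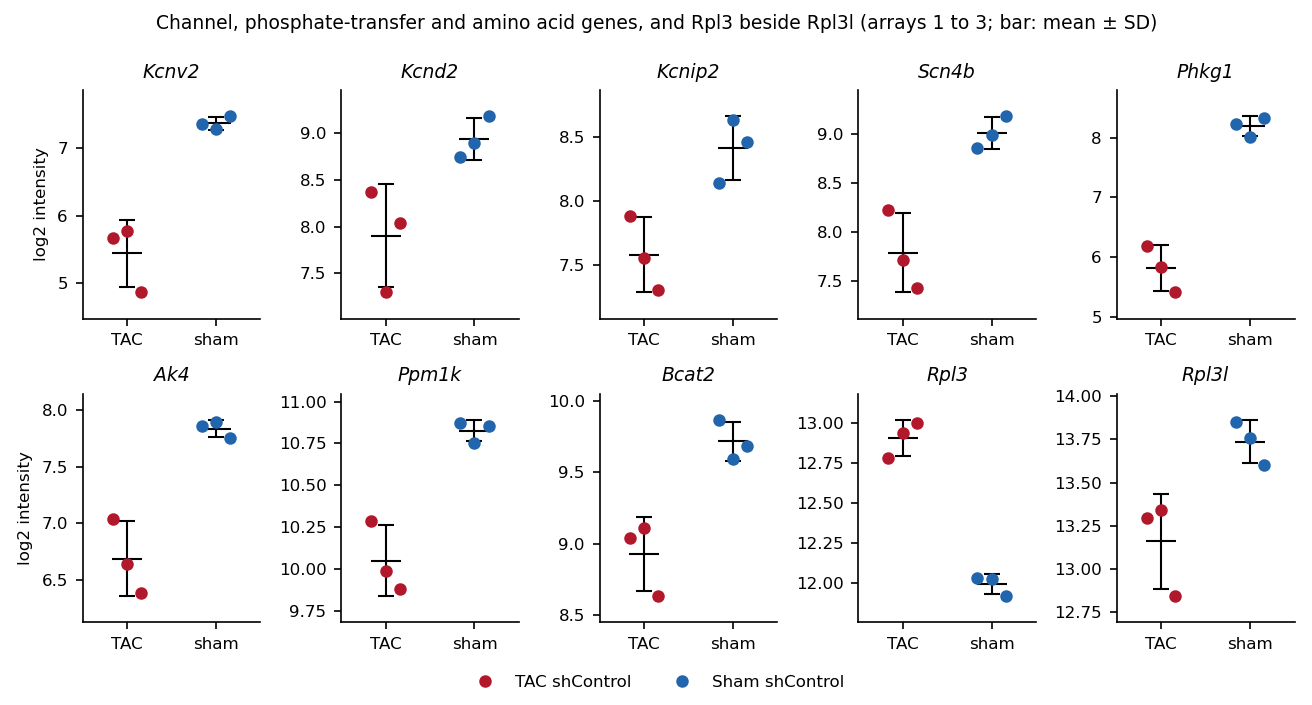
Log2 intensity of 10 genes on the 3 TAC shControl arrays (red, left) and the 3 Sham shControl arrays (blue, right), with mean and SD as black bars. Kcnv2, Kcnd2, Kcnip2, Scn4b, Phkg1, Ak4, Ppm1k, Bcat2 and Rpl3l lay lower on every TAC array, and Rpl3 lay higher on every TAC array.

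The proteasome degrades proteins tagged with ubiquitin. None of 31 proteasome subunits passed, with a median of -0.05 that was 0.05 under median scaling. Scaled to the probes detected on all arrays 5 fell (median -0.23), and in a fit of the authors' deposited normalized values 2 rose. None of 22 autophagy, ubiquitin ligase and FOXO genes passed either, including the atrophy ligases Trim63 (-0.51 ± 0.18, adjusted p = 0.0722) and Fbxo32 (-0.65 ± 0.30, adjusted p = 0.155). At unadjusted p under 0.05 there were 1 and 4 such genes. Of 22 heat shock genes Hspb7, a small chaperone of heart muscle, rose by 0.71 ± 0.16 (adjusted p = 0.00970), Hsph1 fell by 0.80 ± 0.21 and Hspe1 fell by 0.77 ± 0.19 (adjusted p = 0.0234 and 0.0149). The falls, 9.1% of the list, lay near the 7.47% of all genes that fell. Hsph1 was not called without sham array 2 or TAC array 2 (adjusted p of up to 0.0837). Hspe1 was not called without TAC array 3 (adjusted p = 0.0704).

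Genes of the integrated stress response, which cells use when amino acids or folding capacity run short, rose in 6 of 16 cases and fell in 1. The count of rises was 3 without sham array 2, 2 without sham array 3 and 1 without TAC array 3. Asns, asparagine synthetase, was detected on every TAC array and no sham array, with 6.27, 6.23 and 6.41 in TAC cells, against 4.78, 4.70 and 4.92 in sham cells, and rose at least 1.93-fold (adjusted p = 7.65e-05). Psat1, of serine synthesis, rose at least 1.47-fold (adjusted p = 0.0298). Ddit3, the stress factor CHOP, fell by 0.70 ± 0.17 (adjusted p = 0.0157), and Atf4 did not pass (0.29 ± 0.17, adjusted p = 0.245). The second Ddit3 probe differed by -0.53 and did not pass (adjusted p = 0.0722). Psat1 was not called without sham array 2, sham array 3, TAC array 2 or TAC array 3 (adjusted p of up to 0.112). Ddit3 was not called without sham array 1, TAC array 2 or TAC array 3 (adjusted p of up to 0.0596).

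Fibrillar collagens give connective tissue its strength and are made chiefly by fibroblasts, whose marker sums are given above. Of 6 measured fibrillar collagen genes 5 rose (median 2.65), where 11.4% of all genes rose. No sham array detected 4 of the 6, and with these at their bounds the median was 2.02. Col1a1, the main chain of type I collagen, had 8.50, 8.22 and 8.64 in TAC cells, against 4.73, 5.08 and 4.49 in sham cells, and Col3a1 of type III had 7.32, 7.01 and 7.95 in TAC cells, against 4.6, 4.52 and 4.67 in sham cells. No sham array detected either, and they rose at least 8.54-fold and 4.19-fold (adjusted p = 2.26e-05 and 0.000326). Of 16 basement membrane genes 10 rose and 1, the laminin chain Lamb3, fell by 0.82 ± 0.23 (adjusted p = 0.0290). Col4a1 and Col4a2, neighbours on 1 chromosome that share a promoter, rose by 2.42 ± 0.25 and 1.70 ± 0.21 (adjusted p = 0.000128 and 0.000373). Lamb3 was not called without sham array 1, sham array 3 or TAC array 3 (adjusted p of up to 0.126).

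Elastic fibres let vessels and tissue recoil. Of 9 elastic fibre genes 7 rose and 1, Emilin2, fell by 0.79 ± 0.19 (adjusted p = 0.0130). Eln, elastin itself, had 7.99, 7.51 and 8.85 in TAC cells, against 4.33, 5.75 and 5.67 in sham cells. It was detected on 2 of 3 sham arrays and rose by 2.86 ± 0.37 (adjusted p = 0.000499). Loxl1, a lysyl oxidase of elastic fibres, had 10.09, 10.06 and 10.50 in TAC cells, against 7.62, 8.12 and 7.22 in sham cells, and rose by 2.56 ± 0.28 (adjusted p = 0.000213). Of 17 collagen processing genes 9 rose, among them P3h3, Bmp1 and Pcolce, the first at least 1.56-fold and the others by 1.21 ± 0.17 and 1.73 ± 0.24 (adjusted p = 0.000270, 0.000718 and 0.000838). Of the collagen processing genes 5 rose without sham array 1, sham array 3 or TAC array 3. Serpinh1, the collagen chaperone, and P4ha1 did not pass (0.10 ± 0.19 and -0.30 ± 0.16, adjusted p = 0.759 and 0.217). Emilin2 was not called without sham array 3 or TAC array 3 (adjusted p of up to 0.0623).

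Of 20 matrix-degrading enzymes and inhibitors 9 rose (14 under median scaling) and 1, the serine protease Htra1, fell by 0.48 ± 0.12 (adjusted p = 0.0204). Mmp2, a gelatinase, had 9.64, 9.37 and 10.24 in TAC cells, against 6.73, 7.03 and 6.32 in sham cells, and Mmp14, the membrane protease that activates it, had 8.50, 8.20 and 9.36 in TAC cells, against 5.25, 6.2 and 5.36 in sham cells. They rose by 3.06 ± 0.48 and 3.09 ± 0.39 (adjusted p = 0.00158 and 0.000442). The inhibitor Timp1 rose by 2.92 ± 0.28, while Timp2 (0.70 ± 0.23) and Timp4 (1.06 ± 0.61) did not pass (adjusted p = 0.000104, 0.0555 and 0.254). Of 23 proteoglycans and matricellular proteins 16 rose and none fell, led in p by Fstl1, Fn1, Sparc and Bgn, with rises of 2.31 ± 0.29 for fibronectin, Fn1, and 2.73 ± 0.36 for biglycan, Bgn (adjusted p = 0.000421 and 0.000587). Timp2 did pass without sham array 1 or TAC array 1 (adjusted p of up to 0.0478). Mmp14 and Fn1 were each detected on 3 TAC and 1 sham array. Htra1 was not called without sham array 3, TAC array 1 or TAC array 3 (adjusted p of up to 0.0889).

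The TGF-beta family, whose ligands drive matrix production, rose in 9 of 26 cases and fell in none (median 0.58). With genes that a whole group did not detect at their bounds, the median was 0.36. There were 5 rises without TAC array 3. Both main receptors rose, Tgfbr1 by 0.82 ± 0.18 and Tgfbr2 by 0.84 ± 0.20 (adjusted p = 0.00885 and 0.0123). Ltbp4, which stores latent TGF-beta in the matrix, rose by 2.01 ± 0.39 and the signal carrier Smad1 by 1.13 ± 0.23 (adjusted p = 0.00450 and 0.00600). Tgfb1, the best known ligand, had 7.05, 7.09 and 6.87 in TAC cells, against 6.99, 6.70 and 7.55 in sham cells. Its groups overlapped, and it did not pass (-0.07 ± 0.23, adjusted p = 0.861). Smad2 and Smad3 did not pass either (-0.39 ± 0.13 and -0.19 ± 0.16, adjusted p = 0.0555 and 0.469). Another, dimmer probe of Smad3 fell by 0.55 ± 0.15 (adjusted p = 0.0228). Of the 3 Ltbp4 probes 1 differed by 0.56 and did not pass (adjusted p = 0.109). Tgfbr2 was not called without sham array 3 or TAC array 3 (adjusted p of up to 0.0588).

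Nonmuscle cytoskeleton genes rose in 20 of 33 cases and fell in none (median 0.92), where 11.4% of all genes rose. Actb, the cytoplasmic beta actin, had at its brightest probe 12.36, 12.62 and 12.71 in TAC cells, against 10.52, 10.98 and 10.20 in sham cells, a rise of 2.00 ± 0.21 (adjusted p = 0.000143). Of its 4 other probes 2 rose and 2 did not pass, at 0.03 and -0.10. Myh9, nonmuscle myosin, rose by 2.18 ± 0.31 and the thymosin Tmsb10 by 2.35 ± 0.37 (adjusted p = 0.000895 and 0.00158). Annexins and S100 proteins, which bind calcium and membranes, rose in 8 of 16 cases, with Anxa2 at 2.27 ± 0.33 and its partner S100a10 at 1.31 ± 0.31 (adjusted p = 0.00113 and 0.0124). Anxa6 (-0.12 ± 0.16) and S100a1 (0.09 ± 0.14), a regulator of calcium cycling in heart muscle, did not pass (adjusted p = 0.654 and 0.715). The rises numbered 5 without sham array 3 or TAC array 3. S100a10 was not called without sham array 3 or TAC array 3 (adjusted p of up to 0.0591).

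Endothelial genes differed between the TAC arrays. The mean log2 level of the 20 endothelial markers was 8.05, 8.72 and 8.96 on TAC arrays 1, 2 and 3, and 7.08, 7.03 and 6.92 on the sham arrays. TAC array 1 thus lay nearest the sham group. Leaving out 1 array changed the number of rises, which was 11 without sham array 3 and 10 without TAC array 3. Pdgfb, a ligand by which endothelial cells recruit pericytes, had 7.64, 8.52 and 8.33 in TAC cells, against 6.23, 6.04 and 5.99 in sham cells, a rise of 2.08 ± 0.40 (adjusted p = 0.00476).

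Notch genes guide vessel growth and rose in 5 of 8 measured cases (median 1.25). With genes that a whole group did not detect at their bounds, the median was 1.05. The number of rises was 3 without TAC array 3. Notch4, a receptor of endothelial cells, had 8.32, 8.69 and 9.33 in TAC cells, against 6.82, 6.64 and 6.61 in sham cells, and Nrarp, a target gene that dampens the pathway, had 7.19, 7.56 and 7.47 in TAC cells, against 5.79, 4.96 and 5.14 in sham cells. Both lay apart between the groups and rose by 2.09 ± 0.36 and 2.11 ± 0.26 (adjusted p = 0.00245 and 0.000424). The target genes Heyl and Hey1 rose too, at least 1.19-fold and by 1.48 ± 0.37 (adjusted p = 0.00273 and 0.0159), and Hes1 did not pass (0.47 ± 0.22, adjusted p = 0.155). Vegfc, a growth factor of lymphatic vessels, rose at least 1.63-fold (adjusted p = 0.00172), and Vegfa did not pass (adjusted p = 0.99). Hes1 did pass without sham array 1 (adjusted p = 0.0447). Nrarp was detected on 3 TAC and 1 sham array. Hey1 was detected on 3 TAC and 2 sham arrays. Hey1 was not called without sham array 3 or TAC array 3 (adjusted p of up to 0.0724).

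Among other growth factor genes, 9 of 20 rose and none fell. The count of rises was 5 without sham array 3 and 3 without TAC array 3. Igfbp7, a secreted IGF-binding protein, had 12.19, 12.74 and 13.25 in TAC cells, against 9.97, 10.15 and 9.71 in sham cells, and rose by 2.78 ± 0.40 (adjusted p = 0.000930). The receptor Igf1r had 7.73, 7.69 and 7.91 in TAC cells, against 7.02, 6.99 and 7.0 in sham cells, with sham values almost equal, and rose by 0.77 ± 0.19 (adjusted p = 0.0141), although its 2 other, dimmer probes did not pass. Fgf16 (-0.46 ± 0.27) and Igf2 (1.00 ± 0.42) did not pass (adjusted p = 0.256 and 0.113). Igf1r was not called without TAC array 3 (adjusted p = 0.0597).

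Mitosis genes act when a cell divides. Of 35 listed genes 17 were measured, and 12 of these were detected on no sham array, so that they entered the test through the TAC arrays. Of the 17 genes 13 rose, and their median of 1.52 was 0.81 with such genes at their bounds and 0.61 on the probes detected on all 12 arrays. Kif22, a kinesin of the spindle, had 6.05, 6.81 and 6.80 in TAC cells, against 4.74, 4.53 and 4.85 in sham cells, and Cdca8, of the chromosomal passenger complex, had 5.73, 5.92 and 6.19 in TAC cells, against 4.65, 4.39 and 4.25 in sham cells. They rose at least 2.29-fold and 1.5-fold (adjusted p = 0.000181 and 0.000128). Of 20 replication genes 7 rose, among them Mcm5 and Tyms, at least 3.09-fold and 2.01-fold (adjusted p = 0.000152 and 0.00234).

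Of 18 cyclins, kinases and inhibitors of the cycle 7 rose and none fell. There were 4 rises without sham array 3 or TAC array 3. Ccnd1, cyclin D1, had 9.58, 10.55 and 10.70 in TAC cells, against 8.97, 8.76 and 8.58 in sham cells, and rose by 1.51 ± 0.26 (adjusted p = 0.00255). Cdkn1a, the inhibitor p21, had 9.36, 9.36 and 9.92 in TAC cells, against 6.42, 8.58 and 8.35 in sham cells, with sham array 1 far below the 2 other sham arrays. Its rise of 1.76 ± 0.45 (adjusted p = 0.0185) held between groups that do not overlap, and 1 of its 3 probes did not pass. Of the 3 Ccnd1 probes 1 differed by 0.89 and did not pass (adjusted p = 0.0750). Cdkn1a was not called without TAC array 3 (adjusted p = 0.0765).

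Uhrf1, a protein that recognises newly replicated DNA and the target of the hairpin in the other arm, was detected on all TAC arrays and no sham array, with 6.14, 7.11 and 6.89 in TAC cells, against 4.98, 4.89 and 4.76 in sham cells. It rose at least 2.56-fold (adjusted p = 0.00205). Of 17 DNA methylation and chromatin genes it and Hmgb2 (1.05 ± 0.19, adjusted p = 0.00352) passed, a share near the 11.4% of all genes that rose, while Dnmt1 (0.18 ± 0.20), Dnmt3b (0.29 ± 0.17) and Ezh2 (0.23 ± 0.17) did not (adjusted p = 0.569, 0.258 and 0.369). Dnmt3b was detected on 3 TAC and 1 sham array.

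Interferon response genes rose in 13 of 21 cases and fell in none (median 1.22), where 11.4% of all genes rose. The rises numbered 5 without sham array 3 or TAC array 3. Irf1, a transcription factor of the response, had 8.41, 9.23 and 9.38 in TAC cells, against 7.74, 7.48 and 7.20 in sham cells, and Isg15, a ubiquitin-like modifier, had 6.56, 6.61 and 7.0 in TAC cells, against 5.86, 5.45 and 5.19 in sham cells. They rose by 1.53 ± 0.31 and 1.22 ± 0.27 (adjusted p = 0.00532 and 0.00857), and Irf7 did not pass (0.44 ± 0.25, adjusted p = 0.254). Genes of antigen presentation, which interferon can induce, had a positive difference in all 16 measured cases, against 3975 of 8746 over all genes. Their median was 0.68, yet none passed, and 3 had an unadjusted p under 0.05. When sham array 1 was left out 4 rose and the median was 1.15, and 2 rose with median scaling, as did 2 with array weights. On sham array 1 their mean level was 8.68, against 7.55 and 7.45 on sham arrays 2 and 3 and 8.28 to 8.78 on the TAC arrays. The class II gene H2-Aa, for example, had 8.35, 8.11 and 8.77 in TAC cells, against 8.66, 7.07 and 7.15 in sham cells. H2-Aa did pass without sham array 1 (adjusted p = 0.0337). Isg15 was detected on 3 TAC and 2 sham arrays. Irf7 was detected on 1 TAC and 1 sham array.

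Cytokine and acute-phase genes rose in 13 of 37 cases and fell in none (median 0.71), where 11.4% of all genes rose. With genes that a whole group did not detect at their bounds, the median was 0.56. Leaving out 1 array changed the number of rises, which was 8 without sham array 3 or TAC array 2. Tnfrsf12a, the receptor of the cytokine TWEAK, had 10.80, 11.14 and 11.31 in TAC cells, against 9.79, 10.27 and 9.89 in sham cells, and rose by 1.10 ± 0.21 (adjusted p = 0.00445). Cxcl12, a chemokine of stromal cells, rose by 2.02 ± 0.46 (adjusted p = 0.0102), while Ccl2, which draws monocytes, was detected on 2 TAC arrays and no sham array and did not pass (adjusted p = 0.405). Cx3cr1, a receptor of resident macrophages, was detected on TAC arrays alone, at 6.22, 5.94 and 5.86 in TAC cells, against 4.54, 4.28 and 4.57 in sham cells, and rose at least 1.57-fold (adjusted p = 0.000335). The abundant macrophage genes Lyz2 (0.77 ± 0.32), C1qa (0.56 ± 0.33) and Mrc1 (0.64 ± 0.33) did not pass (adjusted p = 0.119, 0.259 and 0.205). Another, dimmer probe of Lyz2 rose by 1.08 ± 0.32 (adjusted p = 0.0355). Of the 3 Cxcl12 probes 1 differed by 0.62 and did not pass (adjusted p = 0.0691).

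Of 20 immediate early genes 3 rose, Dusp6, Klf6 (0.84 ± 0.19) and Egr3, and 6 rose under median scaling. Dusp6, a phosphatase that ends ERK signals, had 9.10, 9.26 and 9.28 in TAC cells, against 7.58, 7.83 and 7.59 in sham cells, with the groups well apart, and rose by 1.55 ± 0.27 (adjusted p = 0.00255). Fos (0.39 ± 0.19), Jun (-0.11 ± 0.28) and Egr1 (0.42 ± 0.19) did not pass (adjusted p = 0.173, 0.823 and 0.147). Of 14 circadian genes Bhlhe40 alone rose (0.68 ± 0.16, adjusted p = 0.0118), which is 7.1% of the list. The clock genes Arntl, Per2 and Nr1d1 differed by 0.04 ± 0.51, 0.02 ± 0.28 and 0.02 ± 0.30 (adjusted p of 0.970 or more). The second Klf6 probe differed by 0.20 and did not pass (adjusted p = 0.645). Arntl was detected on 1 TAC and 2 sham arrays.

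Of 15 measured genes of cell death and survival 3 rose (20.0%) and none fell, where 11.4% of all genes rose. Casp8, which starts receptor-driven apoptosis, had 6.22, 6.50 and 6.38 in TAC cells, against 5.06, 4.83 and 4.72 in sham cells, and was detected on TAC arrays alone, rising at least 2.01-fold (adjusted p = 0.00134). Apaf1, the scaffold of the apoptosome, rose by 0.92 ± 0.19 and the survival factor Bcl2 by 1.18 ± 0.29 (adjusted p = 0.00651 and 0.0156). Of the 3 Bcl2 probes 1 differed by 0.36 and did not pass (adjusted p = 0.236). Bcl2 was detected on 3 TAC and 1 sham array. Bcl2 was not called without sham array 1, sham array 3 or TAC array 3 (adjusted p of up to 0.0712).

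**Figure D5:**
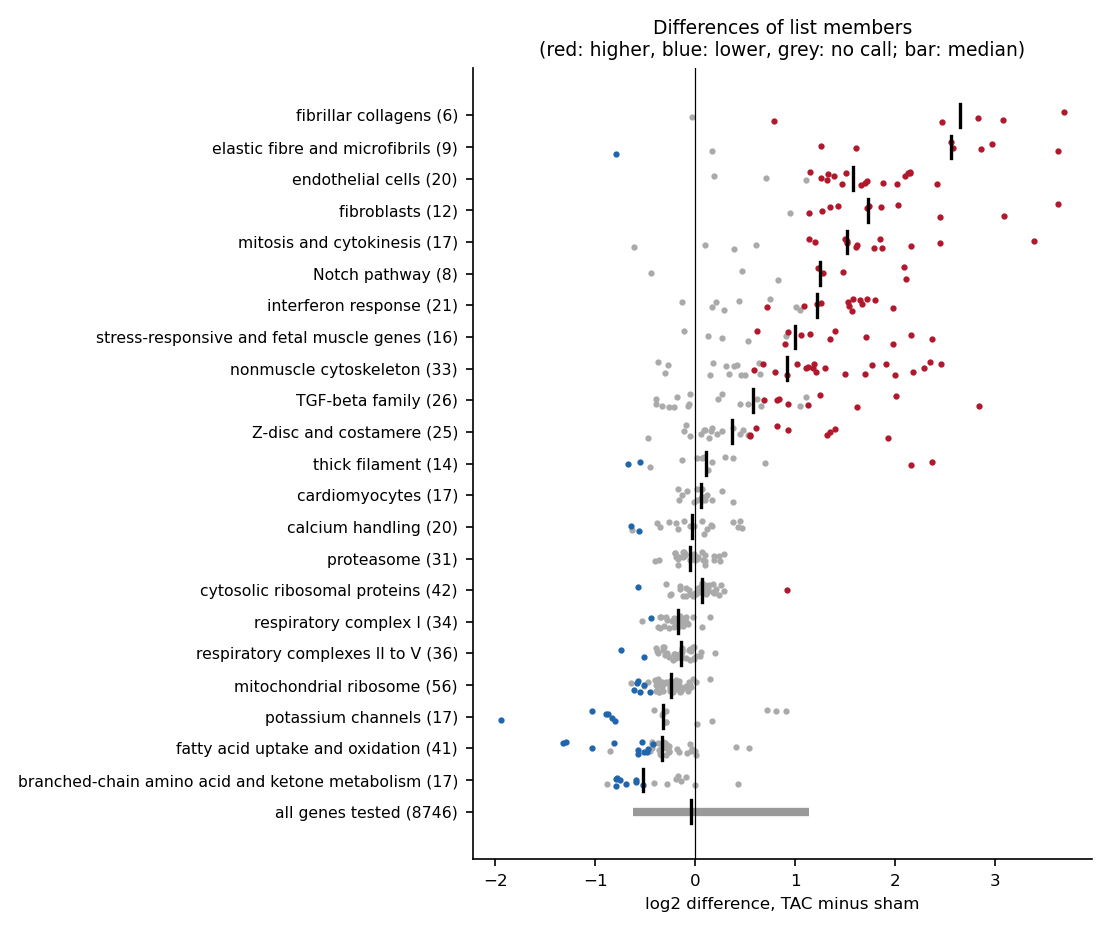
Log2 difference (TAC minus sham) of the measured members of 22 lists, 1 point a gene, red where higher, blue where lower and grey where not called, with the list median as a black bar and the number of genes in brackets. The lowest line gives the median and the range from the 5th to the 95th percentile of all 8746 genes. The medians run from 2.65 for fibrillar collagens to -0.52 for branched-chain amino acid and ketone metabolism. Genes that no sham array detected are drawn at their full differences, and at their bounds the fibrillar collagen median was 2.02.

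Some of the largest falls lay outside muscle and energy genes. Ttll1, an enzyme that adds glutamate chains to tubulin, had 8.66, 8.69 and 7.76 in TAC cells, against 10.20, 9.72 and 10.16 in sham cells, and Dnaaf3, which helps assemble the dynein motors of cilia, had 6.04, 6.54 and 6.50 in TAC cells, against 7.79, 7.89 and 8.17 in sham cells. Ttll1 fell by 1.66 ± 0.23 and Dnaaf3 fell by 1.59 ± 0.18 (adjusted p = 0.000810 and 0.000282), with the groups apart. Tbc1d10c, an inhibitor of Ras and calcineurin in lymphocytes, had 7.36, 6.99 and 7.17 in TAC cells, against 9.23, 8.43 and 9.05 in sham cells, and fell by 1.73 ± 0.21 (adjusted p = 0.000367). Gzmm, a granzyme, stood at 7.26, 7.63 and 6.82 in TAC cells, against 8.93, 8.54 and 8.86 in sham cells, and fell by 1.54 ± 0.23 (adjusted p = 0.00118). Thrsp, a regulator of lipid synthesis, fell by 1.38 ± 0.24 and Cmtm8, a membrane protein, fell by 1.44 ± 0.22 (adjusted p = 0.00271 and 0.00142). The second Tbc1d10c probe differed by -0.57 and did not pass (adjusted p = 0.170).

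Of the 19 genes that every sham array and no TAC array detected, Pigh, 2410137M14Rik, Aqp4 and Cib3 fell by bounds of at least 2-fold. Aqp4, the water channel aquaporin-4, had 4.73, 5.06 and 4.6 in TAC cells, against 6.26, 5.63 and 6.57 in sham cells, and fell at least 2.03-fold (adjusted p = 0.00997). Pigh, of the synthesis of membrane anchors, fell at least 2.37-fold (adjusted p = 0.000385), and Gnmt, a glycine methyltransferase, at least 1.61-fold (adjusted p = 0.000819). In the other direction, Srpx2, a secreted protein, and Ptn, the growth factor pleiotrophin, were detected on TAC arrays alone. They rose at least 4.99-fold and 3.34-fold (adjusted p = 5.65e-05 and 0.00111). Ptn varied widely within the TAC group, at 7.33, 5.88 and 8.09. The second Pigh probe differed by -0.30 and did not pass (adjusted p = 0.351).

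Counts of few falls also moved with the scaling. With scaling to the array median the falls numbered 0 on the thick and 0 on the thin filament, 0 among receptor and G protein genes, 0 for NAD, 0 for heat shock, 1 for calcium handling, 1 for glycolysis, 1 for glycogen, 1 for cardiac transcription factors and 0 for the calcineurin route. With scaling to the probes detected on all arrays they numbered 3 on the thin filament, 4 for NAD, 6 for heat shock, 5 for glycolysis, 3 for autophagy and ubiquitin ligases, 3 for cytosolic ribosomal proteins and 3 for translation.

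Probes of 1 gene did not always agree. Over all probes 9.69% rose and 7.77% fell. Of 3064 genes with at least 2 measured probes, all probes rose for 145 and all fell for 82. For 240 genes some probes rose and the rest did not pass, for 363 some fell, and for 2226 none passed. In 8 genes probes passed in opposite directions: Ackr4, H3c14, Lamp2, Nfix, Nmrk2, Plod3, Serpinf1 and Tbc1d10b. Plod3, a collagen lysyl hydroxylase, rose by 0.84 ± 0.22 at its brighter probe and fell by 0.69 at the other (adjusted p = 0.0195 and 0.0198). Serpinf1, an inhibitor of vessel growth, rose by 2.76 (adjusted p = 0.00141), and its dim probe, detected on 1 sham array, fell at least 1.16-fold (adjusted p = 0.0402). Plod3 was not called without sham array 1, sham array 3 or TAC array 3 (adjusted p of up to 0.0891).

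The same surgery with the hairpin against Uhrf1 gave fewer calls, 485 of 8746 (5.55%), 346 higher and 139 lower. That count does not show a different response. The test of the difference between the responses passed for none of 8746 genes, and 866 had an unadjusted p under 0.05. The smallest adjusted p was 0.162. It passed for 29 genes when TAC shControl array 1 was left out and for 1 gene with no filter on dim probes.

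The 6 genes with the smallest p in that test were Cdc20, Bcl6b, Fhod1, Col6a2, Ift122 and Dgcr8. Fhod1, a formin that arranges actin, was detected on all arrays of both shControl groups. It had 7.21, 6.96 and 7.37 in TAC cells, against 6.0, 5.85 and 5.82 in sham cells, a rise of 1.29 ± 0.16 with the control hairpin (adjusted p = 0.000373), against 0.02 with the Uhrf1 hairpin (adjusted p = 0.954). The difference of the responses was 1.27 ± 0.22 (SE, adjusted p = 0.162). For the stress genes the responses were 1.98 ± 0.29 and 1.63 ± 0.29 for Nppa, 1.71 ± 0.26 and 1.81 ± 0.26 for Acta1 and 2.37 ± 0.52 and 2.59 ± 0.52 for Myh7, with the control hairpin first. The adjusted p of their differences was 0.831, 0.960 and 0.953. Some lists were less alike. With the control and then the Uhrf1 hairpin, 17 and 1 endothelial markers rose (medians 1.58 and 0.16). For Notch genes the rises numbered 5 and 0, and for interferon response genes 13 and 1. Fibrillar collagens gave 5 and 4, elastic fibre genes 7 and 6 and macrophage markers 7 and 10. Over all genes 11.4% and 3.96% rose. No member of these lists passed the test of the difference.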

How the data were processed

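RNA of isolated cardiomyocytes was labelled as biotinylated cRNA and hybridised to Illumina mouse bead arrays, per the labels' protocols. The authors deposited 1 table of non-normalized probe intensity with a detection p-value for each probe and array, per the file headers, and a table of normalized log2 values, for which the submitters' processing notes name lumi without a version. Here the deposited intensity values were background-corrected and quantile normalized with neqc (offset 16) in limma 3.58.1 (R 4.3.3), which takes the background from the detection p-values. The deposited log2 table served as an alternative.

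Of 45281 probes, 34885 carried 1 gene symbol, 18 several and 10378 none. The 15118 probes with a detection p-value under 0.01 on at least 3 of 12 arrays were kept, and each gene was represented by its brightest probe. A linear model with 4 group means was fitted to all 12 arrays with lmFit and eBayes, and p-values were adjusted by the Benjamini-Hochberg method over the 15118 probes at a threshold of 0.05. Every adjusted p given is from this limma fit, and errors of differences are its SE. The fit was tested on simulated data. The number of arrays, 3 a group, limits the precision. No slide or scan batch was available to test.

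The members and gene lists were chosen with earlier results of these data known. Named genes were, per list, the called members with the 6 smallest p and up to 4 well-known members that were not called, the largest changes, the largest switches of detection, the smallest p of the response difference, genes whose probes disagreed in direction, and Uhrf1. Ankrd23, the phosphorylase kinase subunits that were not called, and the falls of Adcy6, Adcy9, Chrm2, Emilin2, Htra1 and Lamb3 were added after their values were seen. Bounds compare the brighter group with the lowest detected signal of each array of the other group, or the probe's own value where that is higher. The alternatives covered background correction, scaling, the filter, the choice of probe, array weights, the arrays in the fit, a replicate block and the omission of each array.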

Additional observations from a re-analysis of the deposited data

How the results depend on the processing

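Across 16 alternatives, 3403 of 3706 values of the 235 named genes kept their direction and their side of the threshold, 244 lost and 55 gained a call, and 4 turned sign. The median of 50 of 72 lists kept its sign under all 16. The 4 that turned sign did so when the probe with the smallest p stood for the gene, at -0.61 for Atp2a2, -0.50 for H3c14, -0.91 for Lamp2 and -0.82 for Tbc1d10b. Without background correction 197 genes were at least 2-fold higher and 14 at least 2-fold lower. Scaling to each array's median gave 72 lower genes, 25 of them at least 2-fold. On probes detected on all 12 arrays, where fewer genes are tested, 615 genes were higher, 259 of them at least 2-fold. With no filter on dim probes the responses differed for 1 gene. The cause of these shifts was otherwise not tested. Leaving out 1 array gave 875 to 1505 called genes, 601 to 957 higher and 274 to 548 lower, 376 to 607 at least 2-fold higher and 54 to 91 at least 2-fold lower, and 0 to 29 genes whose responses differed. The labels do not say whether equal array numbers pair the arrays. Deviations of arrays with equal numbers had correlations of -0.083, -0.079 and -0.009, and those with unequal numbers -0.069 to 0.127. With 3 arrays a group these values cannot decide it. The fit with the replicate number as a block called 1603 genes, 986 higher and 617 lower. The 6 shControl arrays alone gave 936 higher and 453 lower, and the authors' deposited table gave 937 higher and 729 lower. Genes near background have bounds, not sizes.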
